A study of Arabidopsis thaliana with 11 samples.

Results

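The root hair genes described here are 10 genes of Arabidopsis thaliana, taken by gene identifier from the 33602 genes of the expression table: the transcription factor genes RHD6 (AT1G66470), RSL2 (AT4G33880) and RSL4 (AT1G27740), and LRX1 (AT1G12040), PRP1 (AT1G54970), PRP3 (AT3G62680), EXPA7 (AT1G12560), EXPA18 (AT1G62980), COBL9 (AT5G49270, listed as SHV2 in RefSeq) and MRH6 (AT2G03720), which act in the growing hair or its wall. The series measured RNA of whole seedlings of ecotype Columbia, 11 days old, raised in continuous light on medium with 2% sucrose, and compared lines with raised or lowered amounts of PTB1, PTB2 and PTB3, homologues of the polypyrimidine tract-binding protein that act in splicing. The genotypes were MI12, in which an miRNA lowers PTB1 and PTB2 (2 libraries), MI3, in which an miRNA lowers PTB3 (1 library), OE1, OE2 and OE3, which overexpress PTB1, PTB2 and PTB3 (2 libraries each), and wild type, WT (2 libraries). Neither the promoter of the transgenes nor the number of independent lines behind a genotype is given in the sources used here. The table holds 1 value per gene and genotype in RPKM (a read count scaled by gene length and by library depth), so it gives no spread between replicates, and no difference below has a test or a p-value.

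Root hairs are tubular outgrowths of single cells of the root epidermis and widen the surface over which the root takes up water, phosphate and other nutrients. Epidermal patterning genes decide which cells form hairs. In those cells RHD6, a basic helix-loop-helix (bHLH) factor, acts early and turns on the related factors RSL2 and RSL4, which drive hair outgrowth and set its length. Hair cells then make extensins, proline-rich proteins, expansins and other proteins that build and loosen the wall at the growing tip.

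All 10 genes were higher in MI3 and in OE3 than in WT, and 9 of 10 were lower in OE1 than in WT. MI3 was the highest of the 6 genotypes for 9 genes and OE3 for the remaining one, PRP1. OE1 was the lowest for 9 genes and WT for PRP1. The summed level of the 10 genes was 241 RPKM in MI3, 149 in OE3, 91.1 in MI12, 73.8 in OE2 and 48.2 in OE1, against 73.8 RPKM in WT. In whole seedlings, fewer hair cells and less RNA per hair cell cannot be told apart, nor can more cells and more RNA per cell. The 5 lines share the WT column, so agreement between their differences from WT is not independent, and the lines are also set against each other directly below.

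**Figure D1:**
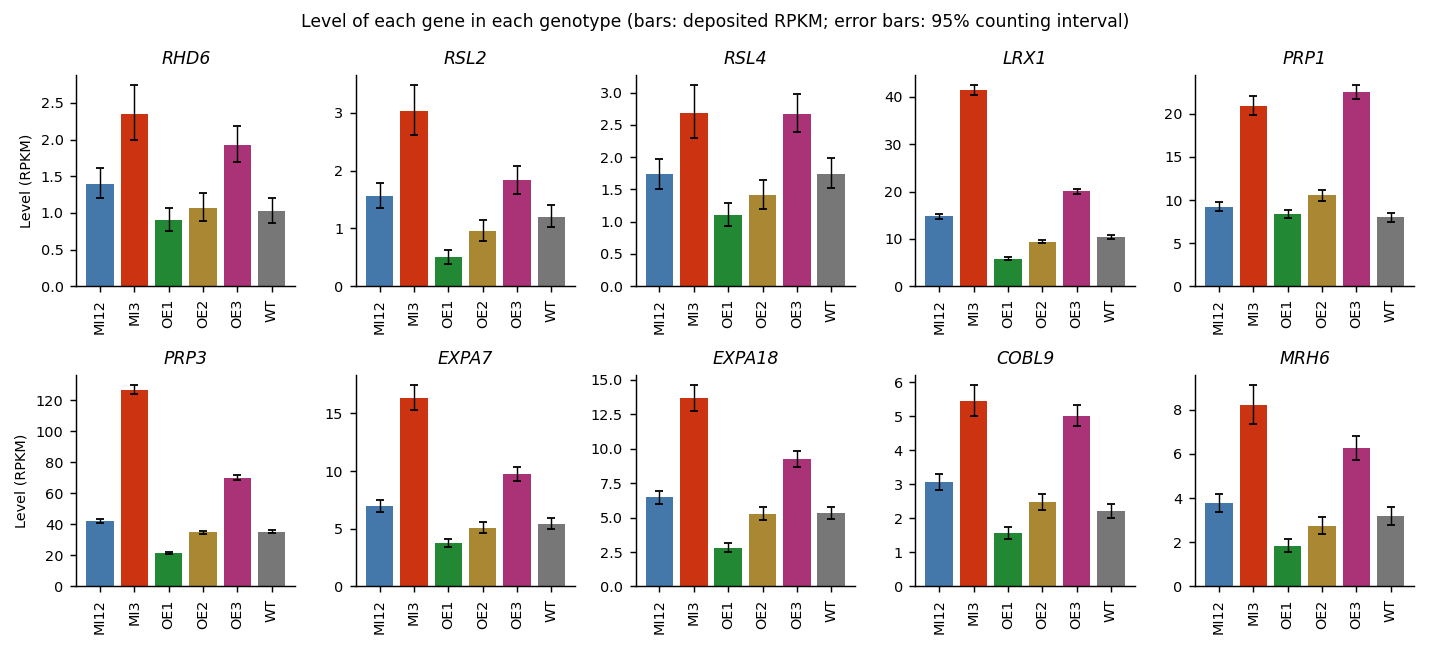
RPKM of each of the 10 genes in the 6 genotypes, on an axis from 0 for each gene. Bars are the deposited values and error bars are 95% exact Poisson intervals on the reads recovered from the table, which cover counting error only. MI3 and OE3 are the 2 tallest bars in every panel, and OE1 is the shortest in every panel except PRP1, where WT is shortest.

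The depth behind these values was recovered from the steps between low values with annotated TAIR10.1 exon lengths, which may differ from those the authors used, and came to between 46.7 M reads in MI3 and 96.4 M reads in OE1, with 93.5 M reads in WT. Read numbers, and the counting intervals built on them, are therefore approximate. PTB1 was at 2.54 RPKM in MI12 and 603 RPKM in OE1, against 9.46 RPKM in WT. PTB2 was at 4.01 RPKM in MI12 and 343 RPKM in OE2, against 9.03 RPKM in WT. PTB3 was at 3.54 RPKM in MI3 and 65.4 RPKM in OE3, against 19.5 RPKM in WT, so each targeted gene lay on the side its label names. The homologues not targeted were not all level with WT. PTB2 was at 5.74 RPKM in OE1, 8.04 in MI3 and 8.23 in OE3. PTB1 was at 6.49 RPKM in OE2, 7.70 in MI3 and 9.42 in OE3. PTB3 was at 18.4 RPKM in MI12, 21.3 in OE1 and 20.1 in OE2. All 10 root hair genes were detected in every genotype, with at least 66 reads each. Markers of other tissues were present as well: the summed level of 6 endodermis genes, the root layer around the vascular tissue, lay between 28.4 RPKM in OE1 and 44.7 RPKM in OE3, and that of 3 leaf antenna genes between 2651 RPKM in OE1 and 6252 RPKM in MI12.

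The stretches of promoter that follow show a motif known from hair genes. The root hair element was first described in promoters of hair expansins, EXPA7 and EXPA18 among them, and RSL4 is known to bind it. The matches of these expansins were therefore known beforehand, and the counts below are a description and no independent support. Its core was searched as TGNNNNCACG and TGNNNNNCACG on both strands of the 250 bases before each annotated start (TAIR10.1, RefSeq). The core was present before 7 of 10 genes, namely all 7 outside the bHLH group, against 9.015% of 27443 promoters of protein-coding genes. The full consensus of the element, which has further positions on both sides and contains the core, was present before 6 of 10 genes, all of these 7 except COBL9, against 0.754% of promoters. RHD6, RSL2 and RSL4 had neither in this window. Each line gives 30 bases around the copy nearest to the start, read 5′ to 3′ along the strand that carries the core, with the core in capitals.
LRX1: tcctcaaactTGGACGCACGttcctagagg
PRP1: ttgtaatagTGTTATGCACGattaaaagac
PRP3: atacctaagTGTAATGCACGatcaaaaaca
EXPA7: aaaaggatagTGATCCGCACGtagccacca
EXPA18: aaaacaaacaTGAACGCACGtccattactt
COBL9: cccaccaacgTGCGTGGCACGagttctaaa
MRH6: tttattttcaTGGCAAGCACGttcaagaaa

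In TAIR10.1 these stretches lie at chr1:4069891-4069920 on the minus strand (LRX1), chr1:20504764-20504793 on the minus strand (PRP1), chr3:23182547-23182576 on the minus strand (PRP3), chr1:4276421-4276450 on the plus strand (EXPA7), chr1:23331517-23331546 on the plus strand (EXPA18), chr5:19974558-19974587 on the minus strand (COBL9) and chr2:1132041-1132070 on the plus strand (MRH6). In LRX1, PRP1 and PRP3 the core lies on the strand opposite to the gene, and in the other 4 it reads in the direction of the gene. LRX1 and EXPA18 hold the shorter form of the core and the rest the longer one. COBL9 had 3 copies of the core, of which the copy shown overlaps another on the opposite strand, and LRX1 and EXPA7 had 2 each. The EXPA18 stretch lies within AT1G62978, an annotated gene on the other strand that is listed at 0 in every genotype. A match describes these letters and not a bound site. The E-box, CANNTG, to which bHLH factors in general can bind, was present before 4 of 10 genes, against 55.3% of promoters.

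**Figure D2:**
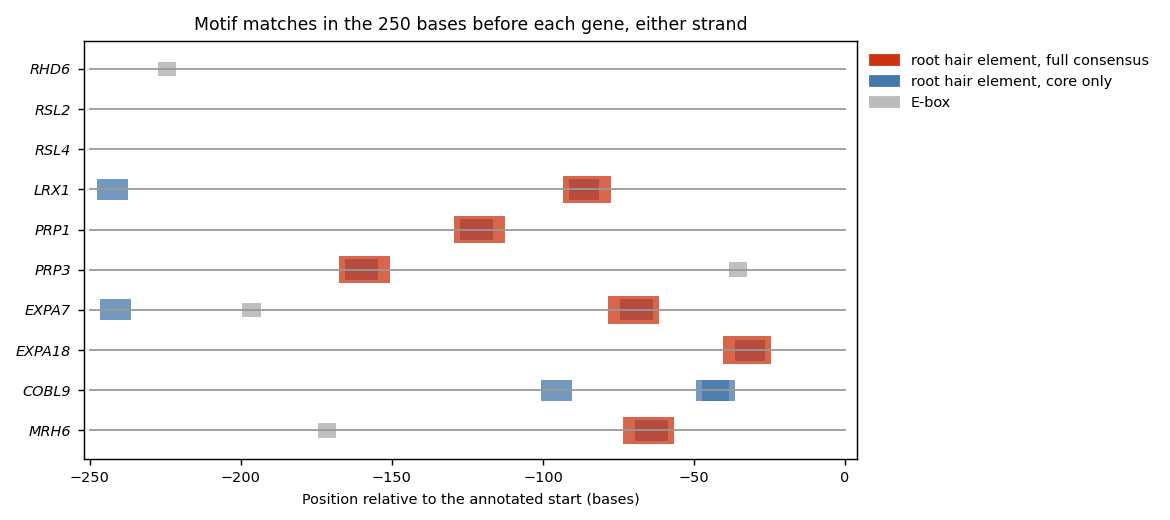
Matches to the root hair element (full consensus in red, core alone in blue) and to the E-box (grey) in the 250 bases before the annotated start of each of the 10 genes, on either strand, by distance from the start in bases. A red box stands before LRX1, PRP1, PRP3, EXPA7, EXPA18 and MRH6, COBL9 has blue boxes only, and the 3 bHLH genes have no root hair element in this window.

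Among the regulators, RHD6 (chromosome 1, 24795214 to 24797015, plus strand) was at 2.35 RPKM in MI3, 1.93 in OE3, 1.40 in MI12, 1.07 in OE2 and 0.899 in OE1, against 1.02 RPKM in WT. RSL2 (chromosome 4, 16239363 to 16241169, minus strand) was at 3.03 RPKM in MI3, 1.83 in OE3, 1.56 in MI12, 0.95 in OE2 and 0.499 in OE1, against 1.20 RPKM in WT. RSL4 (chromosome 1, 9654475 to 9656089, plus strand) was at 2.69 RPKM in MI3, 2.67 in OE3, 1.73 in MI12, 1.41 in OE2 and 1.10 in OE1, against 1.74 RPKM in WT. The 3 factors thus shared the high position of MI3 and OE3 and the low position of OE1, but spanned different ranges. The highest genotype was 6.08 times the lowest for RSL2, 2.62 times for RHD6 and 2.44 times for RSL4. With 66 to 322 reads per value these are the least precise of the 10 genes, and several neighbours in the order of levels did not differ beyond counting error. MI3 and OE3 did not for RHD6 (ratio 1.22, interval 0.992 to 1.49) or for RSL4 (ratio 1.00, interval 0.829 to 1.21).

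The wall protein genes with the widest range were LRX1 and PRP3. LRX1, a leucine-rich repeat extensin of the hair wall (chromosome 1, 4069992 to 4072681, plus strand, 1 exon), was at 41.5 RPKM in MI3, 20.0 in OE3, 14.7 in MI12, 9.43 in OE2 and 5.79 in OE1, against 10.4 RPKM in WT. PRP3, a proline-rich protein of the hair wall (chromosome 3, 23182722 to 23184042, plus strand), was at 127 RPKM in MI3, 70.0 in OE3, 42.2 in MI12, 34.8 in OE2 and 21.6 in OE1, against 35.3 RPKM in WT. Per length, PRP3 was the most abundant of the 10 genes in every genotype. Its relative PRP1 (chromosome 1, 20504901 to 20506504, plus strand) was at 21.0 RPKM in MI3, 22.5 in OE3, 9.21 in MI12, 10.5 in OE2 and 8.39 in OE1, against 7.98 RPKM in WT. PRP1 was the exception to the common order, since OE3 was slightly above MI3 and OE1 was not below WT.

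Expansins loosen the wall by acting on the contacts between its polysaccharides. EXPA7 (chromosome 1, 4276505 to 4277969, plus strand) was at 16.3 RPKM in MI3, 9.73 in OE3, 6.97 in MI12, 5.06 in OE2 and 3.77 in OE1, against 5.46 RPKM in WT. EXPA18 (chromosome 1, 23331563 to 23333246, plus strand) was at 13.6 RPKM in MI3, 9.23 in OE3, 6.46 in MI12, 5.29 in OE2 and 2.82 in OE1, against 5.30 RPKM in WT. For both expansins WT and OE2 did not differ beyond counting error. COBL9, a COBRA-like protein anchored at the cell surface and needed for hair tip growth (chromosome 5, 19971884 to 19974530, minus strand), was at 5.46 RPKM in MI3, 5.02 in OE3, 3.06 in MI12, 2.47 in OE2 and 1.56 in OE1, against 2.22 RPKM in WT. MRH6, known for its part in hair morphogenesis and not as a wall protein (chromosome 2, 1132120 to 1133379, plus strand), was at 8.20 RPKM in MI3, 6.25 in OE3, 3.76 in MI12, 2.74 in OE2 and 1.82 in OE1, against 3.17 RPKM in WT. In COBL9 the values of MI3 and OE3 did not differ beyond counting error (ratio 1.09, interval 0.981 to 1.21).

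MI3, the line with lowered PTB3, lay further above WT than any other line for 9 of the 10 genes. All 7 genes outside the bHLH group were at least 2-fold higher than in WT on the log2(RPKM + 1) scale, a scale that understates changes of low genes. That was 7 of 10 genes, 9 with a pseudocount of 0.1, RHD6 and RSL2 among them, and 6 under median-of-ratios or quantile scaling, where COBL9 was left at 0.95 and 0.91, or when the median of the 4 remaining lines stood in for WT. On the deposited values with a pseudocount of 1, the share of the 19669 genes compared at least 2-fold higher was 2.58% and the share as far below 2.07%. By number, 508 were at least 2-fold higher there and 834 with a pseudocount of 0.1. Under median-of-ratios scaling it was 443, under quantile scaling 462, and against the median of the 4 remaining lines 503. LRX1 had 3.98 times the WT level (95% counting interval 3.80 to 4.17), a log2 difference of 1.90 that ranked 63rd from the top among all compared genes. PRP3 had 3.59 times (3.46 to 3.74), EXPA7 2.99 times (2.69 to 3.33) and PRP1 2.62 times (2.42 to 2.85). MRH6, EXPA18 and COBL9 had 2.59, 2.57 and 2.46 times the WT level. RSL2 had 2.52 times (2.03 to 3.13) and RHD6 2.30 times (1.82 to 2.92), which at their low level came to log2 differences of 0.87 and 0.73, and RSL4 had 1.54 times (1.26 to 1.90). The median log2 difference over the 10 genes was 1.18, where that of all compared genes was 0.05. MI3 stands for a single library with less depth than any other genotype, so a difference of that library and a difference of the line cannot be told apart.

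**Figure D3:**
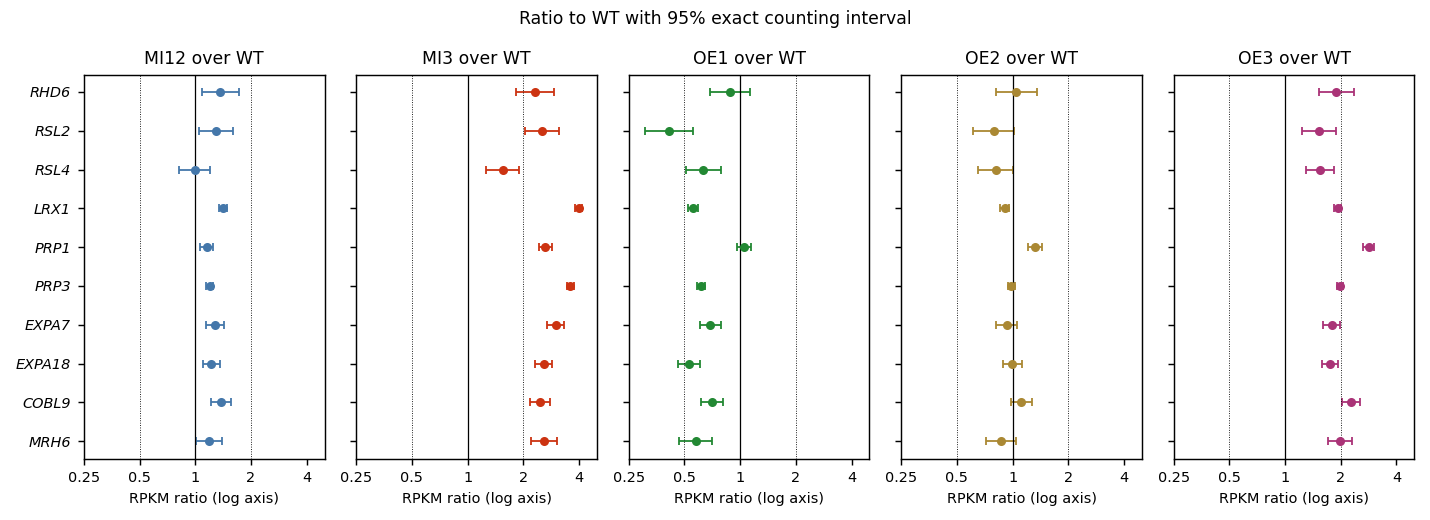
RPKM ratio to WT of each of the 10 genes in the 5 lines, on a log axis, with 95% exact counting intervals. The solid line marks equal levels and the dotted lines mark 2-fold. All points lie right of 1 in MI3 and OE3, all but PRP1 lie left of 1 in OE1, and most intervals cross 1 in OE2.

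Overexpression of the same gene, in OE3, also went with higher values of all 10 genes. PRP1 was the only one at least 2-fold higher on the log2(RPKM + 1) scale, 1 of 10 genes, where the share of compared genes at least 2-fold higher was 0.503% and the share as far below 0.529%. PRP1 had 2.82 times the WT level (2.63 to 3.04) and a rank of 18 from the top of all compared genes. COBL9 had 2.26 times (2.03 to 2.53), PRP3 1.98 times (1.91 to 2.06), MRH6 1.97 times (1.70 to 2.30) and LRX1 1.92 times (1.83 to 2.02). The lowest ratio was that of RSL2, at 1.52 (1.24 to 1.88). The median log2 difference was 0.76 over the 10 genes, where that of all compared genes was 0.04.

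MI3 and OE3 carry opposite PTB3 constructs, and set directly against OE3, MI3 was the higher for 9 of 10 genes. LRX1 was at 2.07 times its OE3 level in MI3 (1.99 to 2.15) and was the only one past 2-fold, at a log2 difference of 1.01 that was 0.996 under median-of-ratios scaling, where the share of compared genes at least 2-fold higher was 1.15% and the share as far below 0.763%. PRP3 was at 1.81 times (1.76 to 1.87), EXPA7 at 1.68 times (1.53 to 1.84) and RSL2 at 1.65 times (1.36 to 2.01). PRP1 was slightly lower in MI3 than in OE3, at 0.929 times (0.870 to 0.992). The median log2 difference of the 10 genes between MI3 and OE3 was 0.43, where that of all compared genes was 0.01. In the same comparison all 11 phosphate starvation genes were higher in MI3, 6 of them at least 2-fold, with a median of 1.12. The endodermis genes had a median of -0.28, with 5 of 6 lower in MI3, and all 3 leaf antenna genes were lower, with a median of -0.44. The part of these genes in the result was not tested.

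Overexpression of PTB1, in OE1, went with lower values of 9 genes, where 10049 of the 19669 compared genes were lower. For 8 of the 9 the counting interval excluded equality, which was not counted over all compared genes. None of the 10 was 2-fold lower or higher on the log2(RPKM + 1) scale, where the share of compared genes at least 2-fold lower was 0.6% and the share as far above 0.31%. RSL2 was at 0.415 times its WT level (0.306 to 0.557), EXPA18 at 0.531 times (0.464 to 0.608), LRX1 at 0.556 times (0.521 to 0.592) and MRH6 at 0.576 times (0.470 to 0.704). PRP3 was at 0.611 times (0.581 to 0.642), RSL4 at 0.632 times (0.508 to 0.784), EXPA7 at 0.691 times (0.607 to 0.786) and COBL9 at 0.704 times (0.611 to 0.812). RHD6, at 0.880 times (0.684 to 1.13), and PRP1, at 1.05 times (0.964 to 1.14), did not differ from WT beyond counting error. The median log2 difference was -0.50 over the 10 genes, where that of all compared genes was -0.01. When the median of the 4 remaining lines stood in for WT it was -0.97, and 4 genes were at least 2-fold lower, as were 250 of the 19669 compared genes under that control, against 118 with WT. The endodermis genes also lay lower, with 5 of 6 below WT and a median of -0.55, none of them 2-fold lower on the log2(RPKM + 1) scale. CASP1, which marks the endodermal barrier, was at 4.69 RPKM in OE1, against 9.99 RPKM in WT, or -0.95 on that scale. All 3 leaf antenna genes were below WT as well, 1 of them at least 2-fold, with a median of -0.34. Their part in the result was not tested.

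In OE2, which overexpresses PTB2, the genes stayed near WT. None was 2-fold apart, where the share of compared genes at least 2-fold higher was 0.259% and the share as far below 0.183%. For 8 of 10 the counting interval included equality, which was not counted over all compared genes. PRP1 was higher, at 1.32 times the WT level (1.21 to 1.44), and LRX1 lower, at 0.906 times (0.854 to 0.960). The median log2 difference was -0.06, close to the -0.05 of all compared genes, and -0.52 when the median of the 4 remaining lines stood in for WT. Set directly against OE2, OE1 was lower for all 10 genes, with none 2-fold lower, where the share of compared genes at least 2-fold lower was 0.58% and the share as far above 0.376%. Over the 10 genes the median log2 difference between OE1 and OE2 was -0.39, where that of all compared genes was 0.04. EXPA18 was at 0.533 times its OE2 level in OE1 (0.464 to 0.612), RSL2 at 0.525 times (0.380 to 0.721), LRX1 at 0.613 times (0.573 to 0.656) and PRP3 at 0.619 times (0.588 to 0.652). RHD6 was the one of the 10 genes whose interval included equality in that comparison, which was not counted over all compared genes either. Beside this, the medians between OE1 and OE2 were -0.27 for 6 endodermis genes, -0.57 for 3 leaf antenna genes and -1.09 for 11 phosphate starvation genes, and their part in the result was not tested.

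In MI12, with lowered PTB1 and PTB2, 9 of 10 genes were slightly above WT, by at most 1.42 times for LRX1 (1.35 to 1.49). None was 2-fold apart, where the share of compared genes at least 2-fold higher was 0.234% and the share as far below 0.269%. RSL4 was level with WT, at 0.996 times (0.822 to 1.21). The median log2 difference was 0.25 over the 10 genes, where that of all compared genes was -0.01, and it turned to -0.15 when the median of the 4 remaining lines stood in for WT. The 3 leaf antenna genes had a median of 0.73 in MI12 and the 6 endodermis genes of 0.17, and their part in the result was not tested. Against the mean of OE1 and OE2, the lines that overexpress PTB1 or PTB2, 9 of 10 genes were higher in MI12. RSL2 was at 2.15 times that mean (1.75 to 2.65) and LRX1 at 1.94 times (1.85 to 2.03), while PRP1 was at 0.973 times (0.907 to 1.04). None passed 2-fold on the log2(RPKM + 1) scale there, where the share of compared genes at least 2-fold higher was 0.28% and the share as far below 0.513%, and the median of the 10 genes was 0.55. The endodermis genes had a median of 0.67 and the leaf antenna genes of 0.96 in the same comparison, both above that of the root hair genes.

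Ratios between pairs of genes within a genotype show how far the 10 genes varied in parallel. EXPA7 lay between 0.958 times the EXPA18 level in OE2 (0.843 to 1.09) and 1.34 times in OE1 (1.16 to 1.55). LRX1 lay between 0.268 times the PRP3 level in OE1 (0.251 to 0.286) and 0.349 times in MI12 (0.335 to 0.3645). PRP1 varied apart from PRP3 and was at 0.165 times the PRP3 level in MI3 (0.156 to 0.175) and 0.389 times in OE1 (0.362 to 0.417), against 0.226 times in WT (0.211 to 0.242). RSL2 was at 1.13 times the RSL4 level in MI3 (0.914 to 1.40) and 0.454 times in OE1 (0.334 to 0.612), against 0.692 times in WT (0.559 to 0.854). Exons of the 10 genes were also searched elsewhere in TAIR10.1, keeping only ungapped alignments without a mismatch. The longest of these was 25 bases. Longer exact runs inside alignments that hold mismatches, as between related genes, would have been missed, so this does not settle how uniquely reads map.

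**Figure D4:**
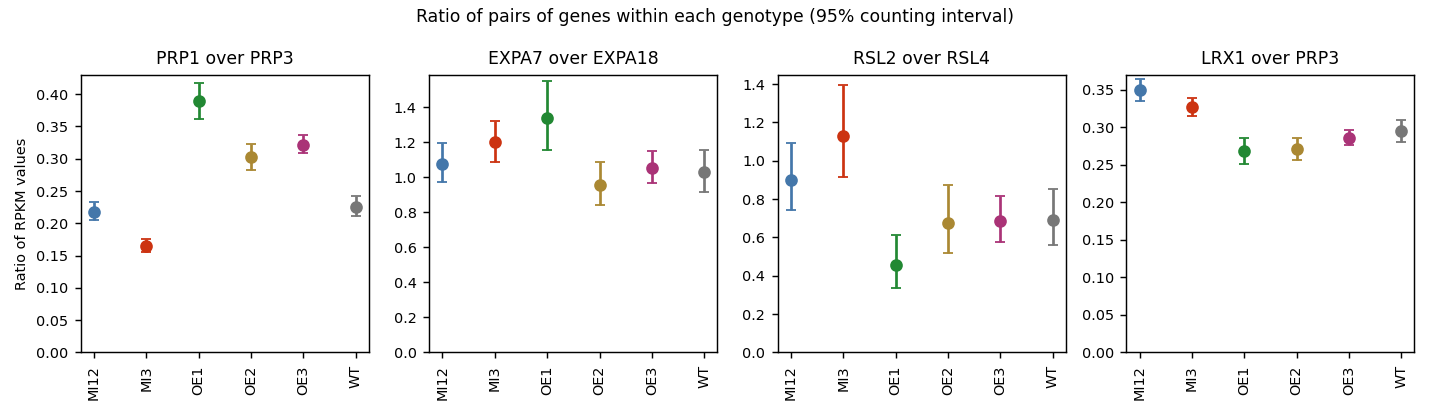
Ratio of the RPKM values of 4 pairs of genes within each genotype, with 95% exact counting intervals. EXPA7 over EXPA18 and LRX1 over PRP3 vary less than the other pairs, though the intervals of their extremes do not overlap. PRP1 over PRP3 is lowest in MI3 and highest in OE1, and RSL2 over RSL4 is highest in MI3 and lowest in OE1.

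Other genes of the hair pathway were taken from lists drawn up by function, with earlier results of these data known. Their counts are a description and no independent support. All 20 further genes of the hair wall passed the filter of 1 RPKM in 2 genotypes. On the log2(RPKM + 1) scale, 15 were at least 2-fold higher in MI3 and 7 in OE3, with medians of 1.33 and 0.84. In OE1 all 20 were below WT, with a median of -0.37 and none 2-fold lower on that scale. The extensin genes EXT6 (148 RPKM in MI3, against 32.9 in WT), EXT10 (159 RPKM in MI3, against 35.7 in WT) and EXT11 (69.5 RPKM in MI3, against 17.5 in WT) lay furthest above WT in MI3 on the log2(RPKM + 1) scale. Extensin genes share repeats, so the split of reads among them is uncertain. EXT10 (17.4 RPKM in OE1) and the extensin family gene MOP10 (7.93 RPKM in OE1, against 16.0 in WT) lay furthest below WT in OE1 on that scale. In the promoters of these genes the core of the root hair element was present in 11 of 19 and the full consensus in 2 of 19.

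Of 6 further hair bHLH genes, 3 passed the filter. On the log2(RPKM + 1) scale, none of these was 2-fold apart in MI3, OE1 or OE3. LRL3, a bHLH gene that acts in hair development, was at 5.76 RPKM in MI3 and 1.02 RPKM in OE1, against 2.75 RPKM in WT. At this low level its differences on that scale came to 0.85 in MI3 and -0.89 in OE1. LRL1 was at 5.12 RPKM in MI3, against 3.60 in WT, and LRL2 at 1.40 RPKM in OE1, against 2.51 in WT. Of the 19669 compared genes, 11160 were above WT in MI3, with a median log2 difference of 0.05. Among 16 genes of tip growth and signalling, 13 were above WT in MI3 and 3 below, with a median of 0.38. On the log2(RPKM + 1) scale 1 was at least 2-fold higher, the phosphatidylinositol transfer protein gene COW1 (10.4 RPKM in MI3, against 4.25 in WT). RHD2, the oxidase that makes reactive oxygen at the hair tip, was at 6.91 RPKM in MI3, against 3.21 in WT, or 0.91 on that scale. Of the 3 genes below WT, the small GTPase gene ROP2, which is also expressed outside hairs, lay furthest below on that scale. It was at 28.0 RPKM in MI3, against 54.9 in WT. The summed level of the 16 genes was 328 RPKM in MI3, against 395 in WT. On the log2(RPKM + 1) scale, the genes of that list furthest below WT in OE1 were the kinase genes AGC2-1 (0.886 RPKM in OE1, against 1.82 in WT) and MRH1 (4.19 RPKM in OE1, against 5.72 in WT).

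Patterning genes and relatives of the wall proteins set the hair growth genes in context. Of 11 patterning genes 9 passed the filter. On the log2(RPKM + 1) scale none of them was 2-fold apart in any of the 5 lines. Their median log2 difference was 0.18 in MI3, 0.16 in OE3 and -0.08 in OE1. In MI3 their differences ran from -0.35 to 0.72. JKD, a zinc finger factor, was at 11.1 RPKM in MI3, against 6.33 in WT. MYB66, the factor WEREWOLF of non-hair cells, was at 2.76 RPKM in MI3 and 3.67 RPKM in OE3, against 1.84 in WT. In OE3 this came to a log2 difference of 0.72. ETC1, a small MYB protein that promotes the hair fate, was at 2.15 RPKM in MI3, against 1.10 in WT, and its relative CPC at 1.52 RPKM in OE1, against 2.17 in WT. Of 24 members of the same wall families that are not on the hair lists, 21 passed the filter, and their medians were 0.16 in MI3 and -0.15 in OE1. LRX3, a relative of LRX1 known from other tissues, lay on the other side of WT, at 33.1 RPKM in MI3, against 171 in WT, a log2 difference of -2.33. The expansin genes EXPA8 (52.8 RPKM in MI3, against 14.2 in WT) and EXPA17 (3.93 RPKM in MI3, against 1.37 in WT) were above WT, and EXPA1 was at 288 RPKM in OE1, against 122 in WT. PRP4, a relative of PRP1 and PRP3, was at 125 RPKM in OE1, against 221 in WT.

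**Figure D5:**
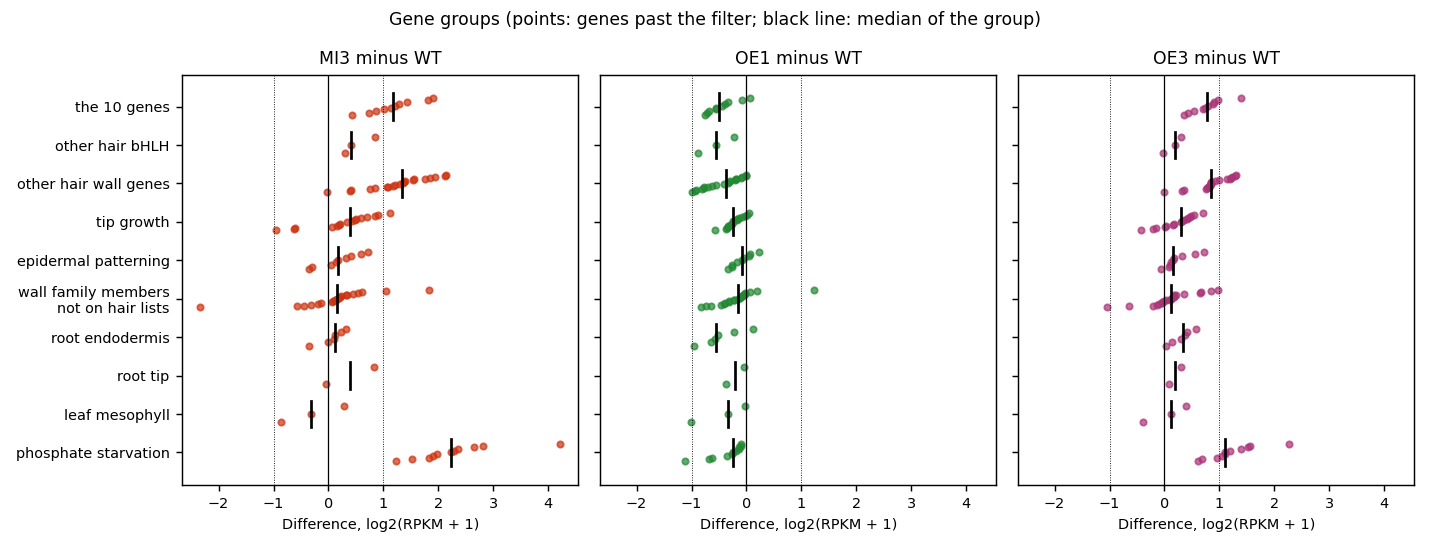
Difference from WT on the log2(RPKM + 1) scale in MI3, OE1 and OE3 for genes past the filter, by functional group. Points are genes and black lines are group medians, and dotted lines mark 2-fold. The 10 genes and the 20 further hair wall genes lie mostly above 0 in MI3 and OE3 and below 0 in OE1. In MI3 the medians of patterning and endodermis genes lie near 0, with single patterning genes from -0.35 to 0.72. Phosphate starvation genes lie highest in MI3 and OE3.

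Levels of other tissue markers and of nutrient genes stood beside these differences as follows, with 2-fold counted on the log2(RPKM + 1) scale. In MI3 the 6 endodermis genes had a median of 0.11 and the 2 root tip genes past the filter a median of 0.39, none 2-fold apart, while 3 leaf antenna genes had a median of -0.32. In OE3 the endodermis median was 0.34. A list of 11 phosphate starvation genes, drawn up with its earlier results in these data known, was at least 2-fold higher for 11 of 11 in MI3 and 8 of 11 in OE3, with medians of 2.22 and 1.10. RNS1, a ribonuclease made under phosphate shortage, was at 76.6 RPKM in MI3 and 19.1 RPKM in OE3, against 3.17 RPKM in WT. The same list had a median of 0.76 in OE2, where the root hair genes stayed near WT, and of -0.25 in OE1. The part of these genes in the levels of the root hair genes was not tested.

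The pattern of the 10 genes over the 6 genotypes was compared with every other compared gene by the root mean square difference between centred log2(RPKM + 1) profiles. The lowest values among genes with a symbol were those of PERK13 (0.058), a receptor-like kinase gene on the hair wall list, PPa5 (0.067), RHS14 (0.079), the AP2 family factor RAP2.11 (0.082), the iron transporter gene IRT2 (0.082), COW1 (0.084), the annexin gene ANNAT2 (0.085) and RSH4 (0.086). PERK13 was at 6.77 RPKM in MI3, 4.37 in OE3, 3.06 in MI12, 2.06 in OE2 and 1.37 in OE1, against 2.14 RPKM in WT. In all, 18 of 19669 compared genes, members included, lay within 0.1 of the mean profile, of which MRH6 was the closest at 0.057. MRH6 is itself 1 of the 10 genes averaged. Among the other members, EXPA7 ranked 22nd in likeness, EXPA18 29th, COBL9 33rd and RSL2 85th. RHD6 ranked 680th, PRP1 761st, RSL4 868th, PRP3 892nd and LRX1 1491st, so the mean profile does not describe all 10 genes closely. With 6 genotypes and 1 value each this ranks likeness and does not show shared control.

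Outside the 10 genes, 136 compared genes had the full consensus of the root hair element in the 250 bases before the start. Of these, 10 were at least 2-fold higher in MI3, or 7.35%, against 2.58% of all compared genes. At least 2-fold lower was 1, or 0.735%, against 2.07%. Their median was 0.15, against 0.05 for all compared genes. Of 1737 compared genes outside the 10 with the core, 67 were at least 2-fold higher in MI3, or 3.86%, and 39 lower, or 2.25%, which was nearer to the shares of all compared genes. The genes with the full consensus had a median of -0.05 in OE1 and 0.09 in OE3, against -0.01 and 0.04 for all compared genes. In each line 1 of the 136 was at least 2-fold higher, or 0.735%. The share of all compared genes was 0.31% in OE1 and 0.503% in OE3. Both sets were chosen after the values of the 10 genes were seen and hold some of the further hair genes described above.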

How the data were processed

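The authors deposited RPKM values, 1 column for each genotype, made on TAIR10 per the submitters' processing notes. Neither the aligner and counter, nor the strand setting, nor how libraries were combined is given in the sources used here. EXPA7 overlaps AT1G12570 and EXPA18 overlaps AT1G62978 on the other strand, so their reads may not be kept apart. A WT cell that held no number was read as 0. Of the table's identifiers, 32835 matched TAIR10.1 (RefSeq), the source of symbols, coordinates, exon lengths and sequence.

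Differences were taken on log2 of the deposited RPKM plus a pseudocount of 1, over genes that reached 1 RPKM in 2 or more columns, which all 10 genes passed. A log2 difference of at least 1 was counted as 2-fold. The design allowed for limma, which needs 1 column per library and was not run. Depth was fitted so that low values fall on whole reads: between 41.4% and 52.8% of them came within 0.1 of one, where 20% would by chance, so read numbers are approximate. Ratio intervals are 95% conditional binomial intervals (Clopper-Pearson) on those approximate reads and cover counting error only, as no molecular identifiers that mark PCR copies are given.

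The 10 genes and all lists were chosen with earlier results of these data known. Genes that could be named were all 10, up to 3 per list by difference in MI3 and up to 2 in OE1, and the 8 with the most similar profile. Alternatives were other pseudocounts, filters, scalings and, as control, the median of the 4 remaining lines. Calculations were tested on simulated data. Tools were BLAST 2.17.0, matplotlib 3.10.9, scipy 1.17.1, pandas 2.3.3, numpy 2.4.6 and Python 3.11.15.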

Additional observations from a re-analysis of the deposited data

How the results depend on the processing

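Of 108 recomputed counts and medians 96 stayed within the counting interval (medians) or within 1.5 times the reported value (counts). A pseudocount or a filter cannot change the sign of a difference, so only median-of-ratios and quantile scaling could do so. Of 80 differences of single genes, 77 kept their sign under every pseudocount, filter and scaling that gave a value. RHD6, RSL2 and RSL4 had none under the filter of 5 RPKM. The exceptions were PRP3 and EXPA18 in OE2 against WT and RSL4 in MI3 against OE3, all close to 0. When the median of the 4 remaining lines stood in for WT, the median of the 10 genes was -0.15 in MI12, -0.97 in OE1 with 4 genes at least 2-fold lower (250 of 19669 compared genes), and -0.52 in OE2. With a pseudocount of 0.1, the OE1 median was -0.66 with 1 gene at least 2-fold lower. In OE3, 2 genes were at least 2-fold higher with pseudocounts of 0.1 and 0.5. So were 225 and 145 of the 19669 compared genes, against 99 with a pseudocount of 1. With a pseudocount of 0.1, 1 gene was at least 2-fold higher in MI12 than in OE1 and OE2 on average. So were 179 compared genes, against 55 with a pseudocount of 1. The median of OE1 against OE2 was -0.60 with a pseudocount of 0.1, against -0.39 with a pseudocount of 1. Median-of-ratios scaling left 0 genes 2-fold higher in MI3 against OE3, where LRX1 was at 0.996. With a pseudocount of 0.1, 4 of the 8 genes of most similar profile were named again. The cause of these shifts was not tested. No paired analysis was possible because the table has 1 column per genotype, and leaving out single replicates was not run for the same reason. Over all compared genes, a pseudocount of 0.1 raised the number at least 2-fold higher in MI3 to 834 and the number at least 2-fold lower in OE1 to 302, against 508 and 118 with a pseudocount of 1. Differences in RSL2, RHD6 and RSL4 are limited by their low read numbers.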

Other observations

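PRP1 was not the only hair wall gene higher in OE3 than in MI3. Among the 20 further hair wall genes, 5 were lower in MI3 than in OE3. They included 3 genes of xyloglucan endotransglucosylases, enzymes that cut and rejoin wall polysaccharides, and the root hair specific gene RHS18, named here after their values were seen. XTH12 was at 11.6 RPKM in MI3, 12.8 in OE3 and 4.22 in OE1, against 5.05 RPKM in WT. XTH13 was at 8.63 RPKM in MI3, 12.1 in OE3 and 4.28 in OE1, against 4.67 RPKM in WT. XTH26 was at 6.39 RPKM in MI3, 8.61 in OE3 and 3.10 in OE1, against 3.11 RPKM in WT. RHS18 was at 12.2 RPKM in MI3, 13.0 in OE3 and 4.35 in OE1, against 4.67 RPKM in WT. These 4 genes had their lowest value in OE1, whereas PRP1 had its lowest in WT, within counting error of OE1. Their distance from WT in OE1 was small, and XTH26 was level with WT. No counting interval was computed for these 4 genes. XTH14, a further enzyme of that family, was higher in MI3 than in OE3, at 73.0 RPKM in MI3, 48.8 in OE3 and 15.9 in OE1, against 27.9 RPKM in WT.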
